A study of Mus musculus with 10 samples.

Results

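The fibroblast growth factor homologous factors (FHFs) are encoded in the mouse by Fgf11, Fgf12, Fgf13 and Fgf14. These 4 genes were taken by symbol, each matched to 1 Ensembl identifier, from the 25006 genes counted in every library. They were measured in 10 individually harvested neurons from the mouse NTS (nucleus of the solitary tract), a hindbrain relay for signals from the viscera. Each library holds the nuclear and cytoplasmic RNA drawn into a patch pipette from 1 neuron in an acute brainstem slice. All neurons came from 3-month-old C57BL/6 mice of the genotype LepRb-Cre; Halo-eYFP, and none of them is a reporter-negative control.

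The labels sort the neurons by firing property alone. Type 1 comprises the neurons 1-1, 1-2, 4-3, 8-2 and 9-1, and type 2 comprises 6-2, 9-2, 9-4, 10-1 and 10-3. What each firing property is, and which mouse each neuron came from, is not given in the sources used here. Each type was therefore treated as 1 sample of 5 cells: a mean ± SD shows the spread between cells, and no test between types was made. The comparison asks whether FHF transcripts differ in level between the firing types. The reporter follows Cre driven by the leptin receptor gene, and Lepr itself was detected in 2 of 5 type 1 and 4 of 5 type 2 neurons, with 0.89 to 5.09 CPM in the other 4.

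FHFs belong to the fibroblast growth factor family by sequence, but they lack a secretion signal and stay inside the cell. They bind the cytoplasmic tail of voltage-gated sodium channels and change how fast, and at which voltages, the channels inactivate and recover, which bears on how a neuron fires repeatedly. Alternative first exons give most of these genes several N-termini, and the long forms usually called A carry an N-terminal stretch that can itself block the open channel.

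The starts of the coding sequences show what the genes share and where their transcripts part. The first 60 coding bases of the A-type transcript of each gene are given 5′ to 3′ from the GENCODE M21 transcripts on GRCm38, all from the minus strand. For Fgf12, Fgf13 and Fgf14, capitals mark the 38 positions at which these genes have the same base. For Fgf11, capitals mark the 41 bases identical to Fgf12 in a pairwise alignment.
Fgf11-202: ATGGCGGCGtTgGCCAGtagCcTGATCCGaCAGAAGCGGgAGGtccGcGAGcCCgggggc
Fgf12-201: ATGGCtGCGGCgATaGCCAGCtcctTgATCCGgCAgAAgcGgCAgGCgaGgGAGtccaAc
Fgf13-201: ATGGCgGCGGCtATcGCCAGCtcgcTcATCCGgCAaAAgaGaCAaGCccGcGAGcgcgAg
Fgf14-201: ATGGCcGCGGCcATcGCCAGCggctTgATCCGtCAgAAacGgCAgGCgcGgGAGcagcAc
These starts lie in the first coding exons chr11:69801433-69801625 for Fgf11, chr16:28444993-28445191 for Fgf12, chrX:59133877-59134063 for Fgf13 and chr14:124192329-124192521 for Fgf14.

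Another start of Fgf12, of Fgf13 and of Fgf14 is printed because counts per gene add all starts together. Capitals mark bases beyond the transcript's own first coding exon.
Fgf12-202: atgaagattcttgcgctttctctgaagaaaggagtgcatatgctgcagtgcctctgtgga
Fgf13-202: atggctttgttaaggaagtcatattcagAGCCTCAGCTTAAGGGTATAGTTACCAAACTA
Fgf14-202: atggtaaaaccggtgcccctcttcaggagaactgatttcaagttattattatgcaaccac
Their first coding exons are chr16:28564575-28564665, chrX:59166013-59166040 and chr14:124676510-124676717, each upstream of the A-type exon of the same gene on the minus strand. The annotation lists 1 distinct coding start for Fgf11, 3 for Fgf12, 4 for Fgf13 and 2 for Fgf14. Which start a neuron used cannot be read from the deposited counts, so every FHF level below is the sum over starts.

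Over the whole coding sequence of the A-type transcripts the FHF genes were 58.3% to 71.0% identical, Fgf12 and Fgf14 being the closest pair. Over all annotated transcripts, untranslated parts included, the longest run of identical bases was 28, shared by Fgf11 and Fgf12. It was 12 to 15 in the other pairs. No exon of an FHF gene overlaps an exon of any other counted gene. The genes lie at chr11:69796068-69801857 (Fgf11, ENSMUSG00000042826), chr16:28160098-28753068 (Fgf12, ENSMUSG00000022523), chrX:59062145-59568071 (Fgf13, ENSMUSG00000031137) and chr14:123977907-124677127 (Fgf14, ENSMUSG00000025551).

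Levels are in CPM, counts scaled to a common total of summed gene counts. These totals ran from 9796799 in 4-3 to 41844825 in 8-2. Libraries under 20000000 counts were those of 1-1, 1-2, 4-3 and 6-2. By depth alone a count of 0 allows up to 0.306 CPM in the shallowest library and 0.0717 CPM in the deepest. Detection means a level of at least 10 CPM and no fewer than 3 counts. A difference is the type 2 mean of log2(CPM + 1) minus the type 1 mean. Intervals are exact 95% intervals, and the Poisson ones cover counting error only. The binomial ones treat the 5 neurons of a type as independent draws, which the labels do not establish. Pan-neuronal markers were present throughout, with 8 to 11 of 11 detected and a summed level of 7457 to 11573 CPM in each neuron. Microglial markers stood apart in some libraries: 13 of 14 were detected in 6-2 and in 9-4, 7 in 9-2 and 5 in 1-2. Their summed level ran from 0.0668 to 807 CPM among type 1 neurons and from 4.25 to 1846 CPM among type 2 neurons. Astrocyte markers summed to 149.8 to 673 CPM among type 1 neurons and 1045 to 1775 CPM among type 2 neurons, mostly from Aldoc, with 1 to 3 of 10 markers detected in each type 1 neuron and 1 to 5 in each type 2 neuron. The most were in 6-2, with Sox9 at 102 CPM and Gfap at 56.1 CPM, while Slc1a3 and Gjb6 were at 0 in all 10 neurons and Aqp4 was detected in none. The part of other cells' RNA in the FHF values was not tested, beyond the values without 6-2, 9-2 and 9-4 given below.

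Fgf13 was the leading FHF gene of these neurons and was higher on average in type 2. Fgf13 binds sodium channels and, in developing neurons, microtubules. Its levels in type 1 were 178 CPM in 1-1, 269 in 1-2, 394 in 4-3, 401 in 8-2 and 280 in 9-1 (304 ± 93.5 CPM, SD, n = 5 neurons). In type 2 they were 527 CPM in 6-2, 670 in 10-1, 544 in 10-3, 335 in 9-2 and 586 in 9-4 (532 ± 123 CPM, SD, n = 5 neurons). Of the type 2 neurons, 4 lay above every type 1 neuron and 9-2 lay inside the type 1 range, so the ranges overlapped.

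The Fgf13 difference was 0.83 on the log2 scale, or 1.78-fold, against a pooled SD between neurons of 0.43. With the reads of each type added up, Fgf13 made 547 CPM of type 2 reads (exact Poisson limits 543 and 550.5) and 320.1 CPM of type 1 reads (limits 317 and 323). The difference was positive within each set of libraries that could be compared. It was 0.63 in the libraries over 20000000 counts (2 type 1 and 4 type 2 neurons) and 0.98 in those under it (3 and 1). Among the neurons numbered 9, the one first number that both types share, it was 0.66 (1 and 2 neurons). Without 6-2, 9-2 and 9-4, the type 2 neurons with most microglial markers, it was 1.05, with 10-1 and 10-3 as the type 2 neurons left. Genes at large shifted too, by a median of 0.01 in the libraries over 20000000 counts and 0.64 in those under it. Their median was 0.27 among the neurons numbered 9 and 0.07 without 6-2, 9-2 and 9-4. The Fgf13 value of 0.98 therefore includes a general shift, with 6-2 as the lone type 2 neuron. What the first number of a neuron's name stands for is not stated in the labels.

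Fgf12 did not separate the types. It encodes the FHF known in humans for variants that cause early epilepsy, and it shifts the voltage dependence of sodium channel inactivation. Its levels were 137 CPM in 1-1, 43.3 in 1-2, 136 in 4-3, 93.9 in 8-2 and 38.6 in 9-1 among type 1 neurons (89.7 ± 47.8 CPM, SD, n = 5). In type 2 it was at 100.1 CPM in 6-2, 130 in 10-1, 28.2 in 10-3, 60.1 in 9-2 and 52.8 in 9-4 (74.2 ± 40.3 CPM, SD, n = 5). All type 2 neurons but 10-3 fell inside the type 1 range, and 10-3 had the lowest Fgf12 level of all neurons.

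The Fgf12 difference of -0.26 was smaller than the pooled SD of 0.86. Its sign changed between sets of neurons: it was 0.53 among the neurons numbered 9, 0.10 in the libraries under 20000000 counts, -0.04 in those over it and 0.03 without 10-3. Fgf12 nevertheless varied little from neuron to neuron, its highest level being 4.86 times its lowest. The SD of its log2 level over all 10 neurons was 0.82, against a median of 2.68 over the 6782 genes with a mean of 10 to 100 CPM, and 107 of these (1.58%) had a smaller SD. The SD falls with level, and the Fgf12 mean of 81.9 CPM lies high in that band. Genes with a mean of 100 to 1000 CPM had a median SD of 1.20.

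Fgf14 was the uneven member, high in most neurons and nearly missing in a few of both types. It is the FHF whose mutation causes a spinocerebellar ataxia in humans, and it lies with sodium channels at the axon initial segment. In type 1 its level was 1.00 CPM in 1-1 (15 counts), 117 in 1-2, 179 in 4-3, 48.8 in 8-2 and 6.95 in 9-1 (70.6 ± 76.2 CPM, SD, n = 5). In type 2 it was 75.4 CPM in 6-2, 116 in 10-1, 5.99 in 10-3, 122 in 9-2 and 73.7 in 9-4 (78.7 ± 46.5 CPM, SD, n = 5). The highest Fgf14 level was 178 times the lowest, and all 5 type 2 neurons lay inside the type 1 range. Detection of Fgf14 reached 3 of 5 type 1 neurons (exact binomial limits 14.7 and 94.7%) and 4 of 5 type 2 neurons (limits 28.4 and 99.5%).

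The low Fgf14 values were not zeros: 1-1, 9-1 and 10-3 held 15, 218 and 217 Fgf14 counts. Of these, 1-1 is among the libraries under 20000000 counts and 9-1 and 10-3 are among those over it, and 4-3, the shallowest library, had the highest Fgf14 level. The Fgf14 difference of 1.02, or 2.03-fold on the log2(CPM + 1) scale, was smaller than the SD of its log2 level over all neurons, 2.22. With all libraries thinned to the total of the smallest it was 1.14. The difference rested on 1-1, without which it was 0.07. It was 0.16 as the log2 ratio of mean CPM and 0.04 without 6-2, 9-2 and 9-4. Among the neurons numbered 9, where 9-1 is the lone type 1 neuron, it was 3.59.

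Fgf11 was close to absent from the libraries. It was at 0 counts in all 5 type 1 neurons and in 10-3, 9-2 and 9-4, with 1 count (0.0820 CPM) in 6-2 and 27 counts (0.649 CPM) in 10-1. Fgf11 thus reached the detection level in 0 of 5 neurons of each type (upper exact binomial limit 52.2%, if the 5 neurons were independent draws). With the reads of each type added up, Fgf11 made 0.187 CPM of type 2 reads (exact Poisson limits 0.124 and 0.270) and no more than 0.0330 CPM of type 1 reads. The difference of 0.17 describes levels near the depth limit and came from 10-1 for the most part.

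**Figure D1:**
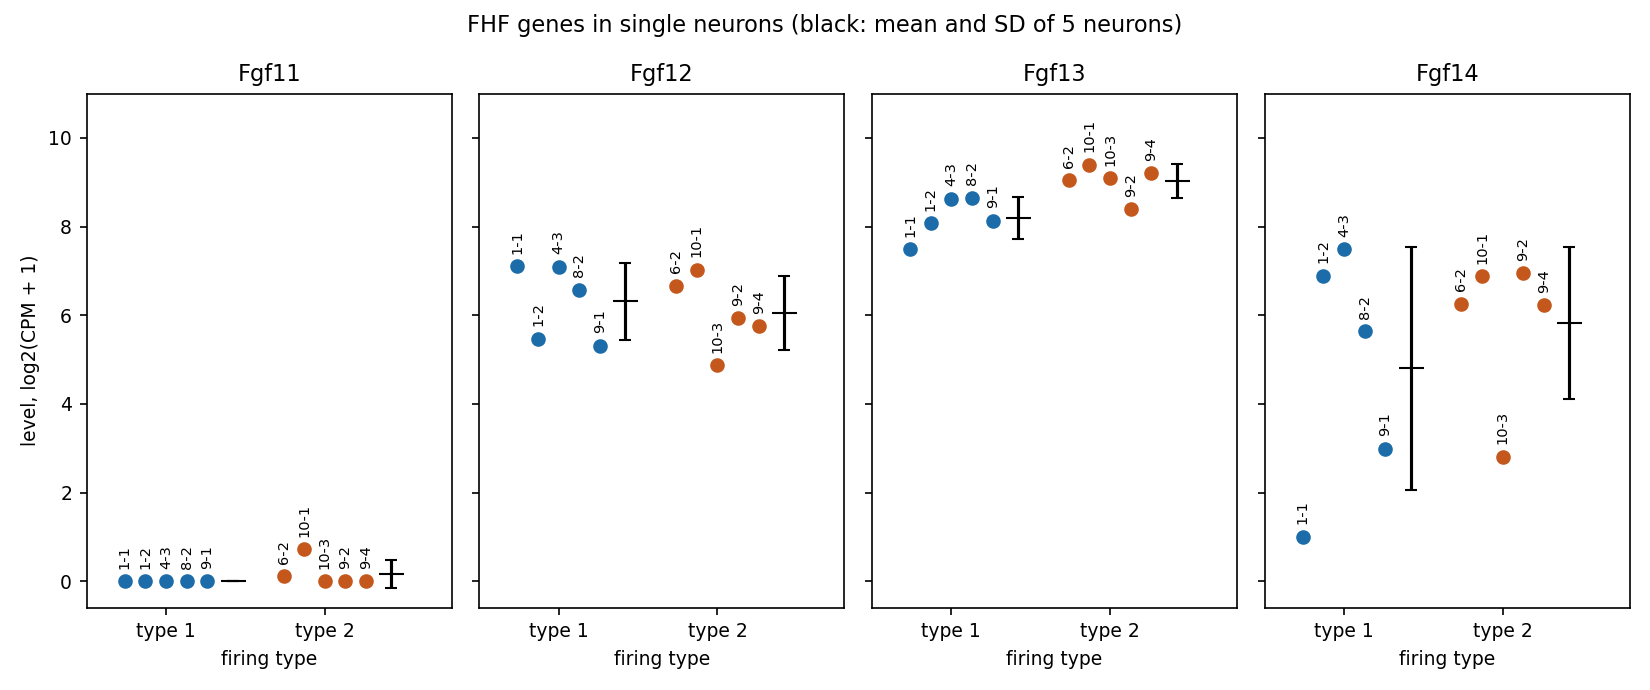
Level of each FHF gene as log2(CPM + 1) in each of the 10 neurons (points, named) by firing type, with the mean and SD of 5 neurons beside them in black. Fgf13 lies highest, Fgf12 overlaps between types, Fgf14 drops to 1.00 CPM in 1-1, 6.95 in 9-1 and 5.99 in 10-3, and Fgf11 lies at or near 0.

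The FHF differences were set beside those of all genes. Of the 4 FHF genes, 3 had a mean over all neurons of 10 CPM or higher, Fgf11 being the exception. Of these, 0 of 3 differed by at least 4-fold, while 25.6% of all genes with that mean did (2360 of 9212). Fgf14 alone of the 3 passed 2-fold, against 54.4% of all genes. In 0 of 3 were the ranges of the types separate, against 2.45% of all genes. With 3 genes, none of these counts sets the FHF genes apart from all genes. The median difference of the 3 FHF genes was 0.83 and that of all 9212 genes was 0.24. With libraries scaled by TMM the median of all genes moved to 0.44, and Fgf13 was then at 1.05, Fgf14 at 1.21 and Fgf12 at -0.04.

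**Figure D2:**
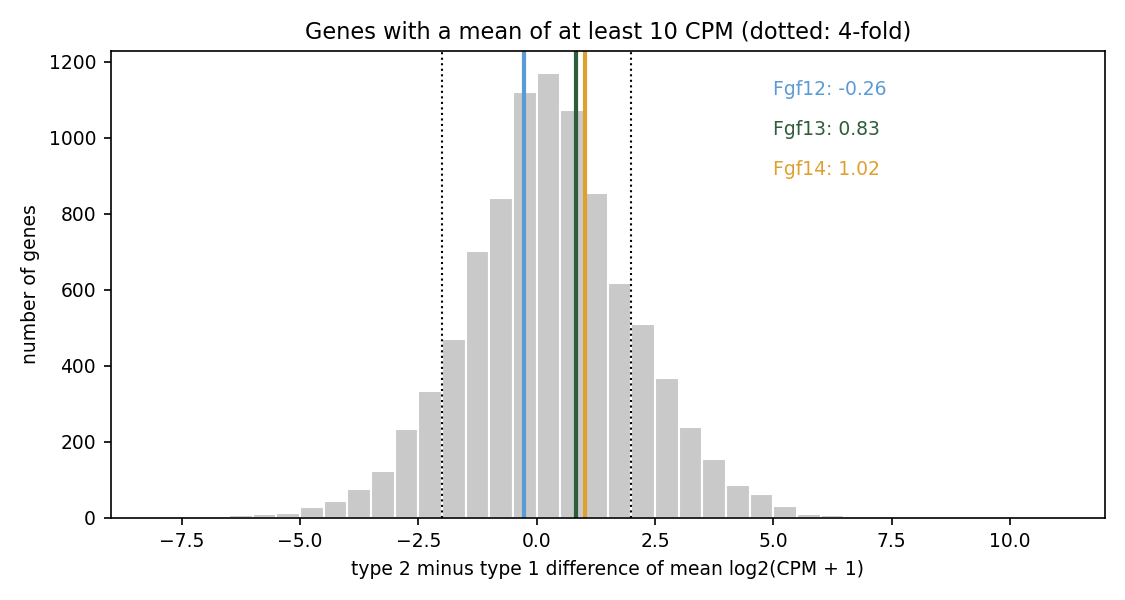
Number of genes (vertical) by log2 difference between the types, positive where type 2 is higher (horizontal), in bins of 0.5, for the 9212 genes whose mean reached 10 CPM. Dotted lines mark 4-fold in either direction, and the coloured lines of Fgf12 (-0.26), Fgf13 (0.83) and Fgf14 (1.02) all fall between them.

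Fgf12 and Fgf13 were detected in all 10 neurons, as were 18.4% of the genes of that mean level, whereas Fgf14 was detected in 7 and Fgf11 in 0. Over the 40 pairs of an FHF gene and a neuron, 27 were detected, 30 at a lower limit of 1 CPM and 23 at 50 CPM. Fgf13 also varied less than most genes in a broad band of levels. The SD of its log2 level over the 10 neurons was 0.60, and 284 of the 2348 genes with a mean of 100 to 1000 CPM (12.1%, median SD 1.20) had a smaller one. The SD of Fgf14, 2.22, was also below the median of genes of 10 to 100 CPM, with 1298 of them (19.1%) below it. Its mean of 74.6 CPM lies high in that band, and its SD exceeded the median of 1.20 in the next band.

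To set different FHF genes beside each other, levels were divided by the length of all annotated exons of each gene. Whether this makes the genes comparable was not tested, and the sources used here give no statement on cDNA amplification. Per kilobase of annotated exons, Fgf13 led in 10 of 10 neurons, and it also did so per kilobase of the longest transcript and without division. In type 1 the means were 75.7 ± 23.3 CPM per kilobase for Fgf13, 16.9 ± 18.2 for Fgf14, 14.5 ± 7.70 for Fgf12 and 0 for Fgf11 (SD, n = 5). In type 2 they were 132 ± 30.7, 18.8 ± 11.1, 11.96 ± 6.50 and 0.0480 ± 0.0931 CPM per kilobase in the same order (SD, n = 5). Fgf13 stood clear of the next gene by more than these spreads in both types, whereas Fgf14 and Fgf12 did not differ beyond theirs. Fgf14 exceeded Fgf12 per kilobase in 2 type 1 and 4 type 2 neurons. By the longest transcript 6-2 changed sides, which left Fgf14 second in 5 neurons and Fgf12 second in 5.

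The make-up of the FHF signal thus varied mainly below Fgf13. Fgf13 supplied 60.3% of the summed CPM per kilobase in 4-3, the smallest share, and 95.8% in 10-3, the largest. The mean share of Fgf13 was 72.2 ± 11.9% in type 1 and 81.1 ± 10.2% in type 2 (SD, n = 5), with overlapping ranges. Fgf12 made up 33.1% of the signal in 1-1, where Fgf14 was at 0.359%, and 3.22% in 10-3. Fgf14 reached 27.5% in 1-2, 26.3% in 4-3 and 23.9% in 9-2. Fgf13 was 2.01 times the next member in 1-1 and 29.8 times in 10-3.

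**Figure D3:**
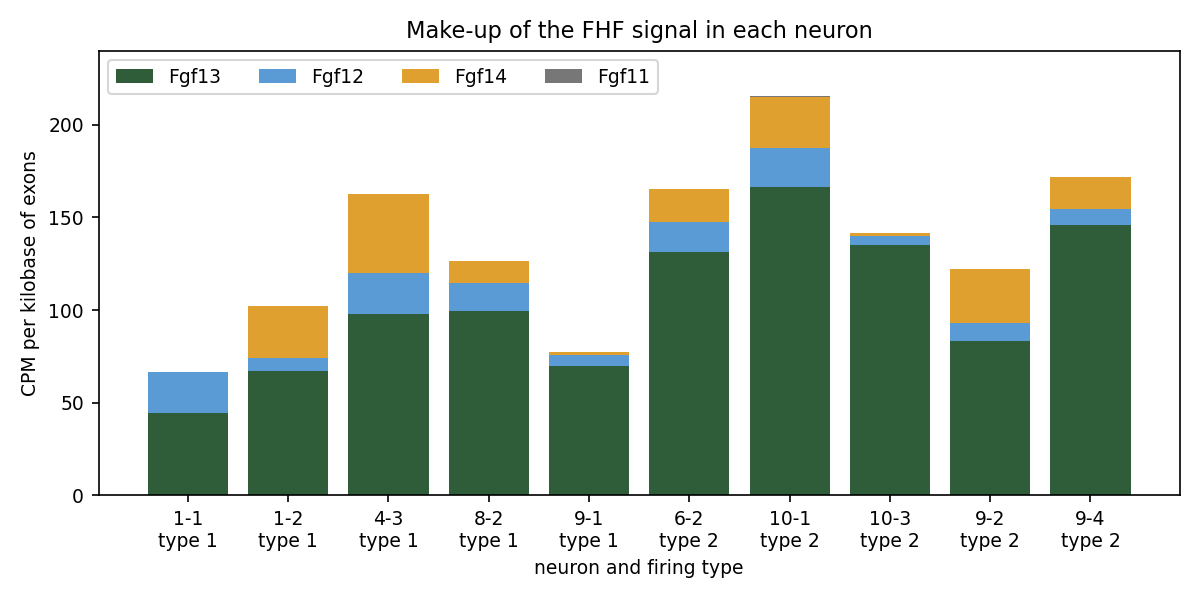
Stacked CPM per kilobase of exons of Fgf13, Fgf12, Fgf14 and Fgf11 in each neuron, with its firing type. Fgf13 is the largest block in every neuron, from 60.3% of the column in 4-3 to 95.8% in 10-3, and the Fgf14 block is thin in 1-1, 9-1 and 10-3.

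The CPM of the 4 FHF genes added together, not divided by length, differed between types in the direction of Fgf13. The sum was 316 CPM in 1-1, 429.8 in 1-2, 708 in 4-3, 543 in 8-2 and 325 in 9-1 for type 1 (465 ± 165 CPM, SD, n = 5). In type 2 it was 703 CPM in 6-2, 916 in 10-1, 578 in 10-3, 518 in 9-2 and 713 in 9-4 (686 ± 153 CPM, SD, n = 5). Of the type 2 neurons, 10-1 and 9-4 exceeded every type 1 neuron, of which 4-3 had the highest sum. The difference of the sum was 0.60.

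The FHF genes did not rise and fall together across neurons. Over the 10 neurons, which differ in depth and firing type, Pearson's r of log2(CPM + 1) was -0.04 for Fgf12 with Fgf13 and 0.20 for Fgf12 with Fgf14. For Fgf13 with Fgf14 it was 0.48, but Spearman's rho was 0.08 and r was -0.08 without the 2 neurons farthest from the median of Fgf13. These values describe 10 libraries and carry no test.

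The genes whose pattern over the 10 neurons was most like each FHF gene were ranked by Pearson's r among 8906 named genes whose mean reached 10 CPM. For Fgf13 they were Mcee (r = 0.917), a mitochondrial epimerase gene, Arid1b (0.885), a chromatin remodelling subunit, and Hacd3 (0.874), an enzyme of fatty acid elongation. For Fgf12, Mllt10 (0.909) and Ergic1 (0.903) were among the 3 highest. For Fgf14 they were Fam50a (0.965), Arl4c (0.964), a small GTPase, and the kinetochore gene Zw10 (0.962). Without the 2 neurons farthest from the median of Fgf14, r was 0.946 for Fam50a, 0.883 for Arl4c and 0.961 for Zw10. Left out in the same way for Fgf13, r was 0.881 for Mcee, 0.724 for Arid1b and 0.835 for Hacd3. For Fgf12 it was 0.939 for Mllt10 and 0.853 for Ergic1. Each of these genes was picked for one of the highest of 8906 values over 10 neurons that differ in depth and firing type, and no p is attached to any r.

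The partners of FHFs in the sodium channel complex showed another pattern. Of the 10 pore subunit genes, 7 were detected in at least 1 neuron and Scn2a alone in all 10, as against Fgf12 and Fgf13 among the FHF genes. Of the 6 whose mean reached 10 CPM, 4 were higher on average in type 1 and 2 were higher in type 2 on the log2 scale, with 0 past 4-fold (25.6% of all genes) and a median difference of -0.92. Scn2a, a channel of axons and dendrites, averaged 209 ± 150 CPM over type 1 and 72.7 ± 27.9 CPM over type 2 neurons (difference -1.17), opposite in direction to Fgf13, with overlapping ranges. Scn9a, best known from sensory and sympathetic neurons, was at 301 ± 316 and 138 ± 89.5 CPM (difference -1.76), with 864 CPM in 1-1 and 0.601 CPM in 10-1. Scn1a was at 49.3 ± 70.6 and 84.6 ± 54.3 CPM (difference 1.72). Scn8a, the channel of mature axon initial segments, had a difference of -0.66, and Scn3a one of 0.31.

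Set against each other per kilobase of exons, the FHF sum exceeded the pore sum in 9 of 10 neurons, a count that rests on the division by length. The FHF sum was 66.7 CPM per kilobase in 1-1 against a pore sum of 105, a ratio of 0.636 and the exception. In the other type 1 neurons the ratio of FHF to pore sum was 2.24 in 1-2, 4.07 in 4-3, 2.61 in 8-2 and 2.57 in 9-1. In type 2 the ratio was 5.13 in 6-2, 3.54 in 10-3, 3.29 in 9-2, 5.74 in 9-4 and 37.4 in 10-1. The ranges overlapped, since 4-3 lay above 10-3 and 9-2. The value in 10-1 paired the highest FHF sum, 216 CPM per kilobase, with the lowest pore sum, 5.76. In that neuron Scn9a and Scn1a were both under 1 CPM, while Fgf13 was at its highest level of all neurons. Pore genes have the longer exons, 12.7 kilobases for Scn2a against 4.02 for Fgf13. Without division the order turned around in some neurons. In 8-2, Scn2a, Scn9a and Scn1a were at 383, 124 and 53.2 CPM, together above the FHF sum of 543 CPM.

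**Figure D4:**
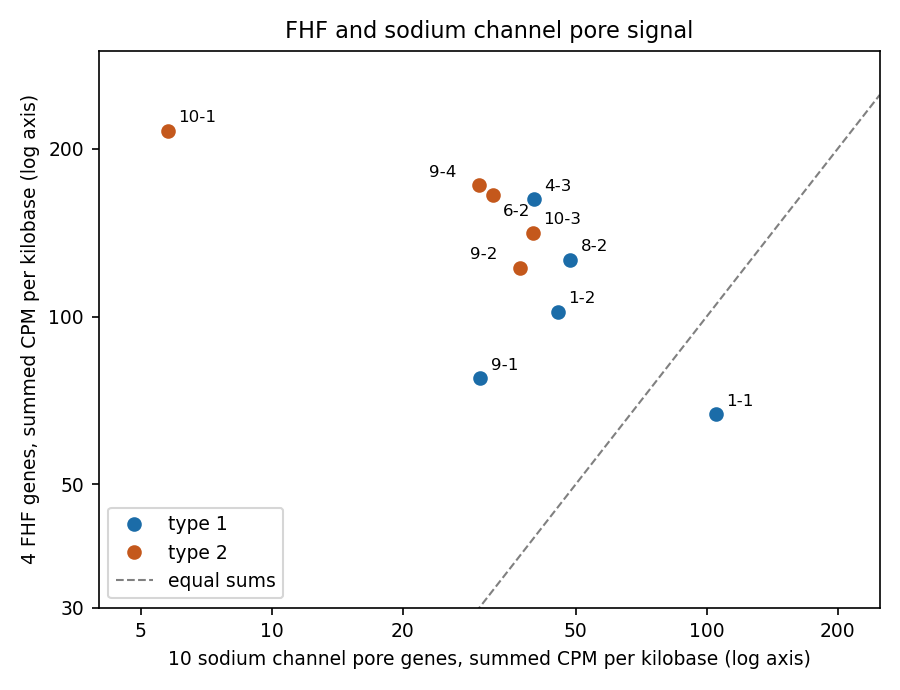
Summed CPM per kilobase of the 4 FHF genes (vertical, log axis) against that of the 10 sodium channel pore genes (horizontal, log axis), 1 point per neuron, coloured by firing type. Only 1-1 (66.7 against 105) lies below the dashed line of equal sums, and 10-1 (216 against 5.76) lies far to the left.

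The pore gene that led per kilobase differed among neurons with one and the same leading FHF gene. Scn9a led in 1-1, 9-1, 6-2 and 10-3, Scn2a in 1-2, 4-3 and 8-2, Scn1a in 9-2 and 9-4, and Scn3a in 10-1. Fgf13 led the FHF genes in all of them. The low Fgf14 neurons 1-1, 9-1 and 10-3 were all led by Scn9a, but 6-2, also led by Scn9a, had 75.4 CPM of Fgf14. Among the beta subunits, Scn3b was at 65.8 ± 79.1 and 60.3 ± 25.3 CPM (difference 0.69) and Scn2b at 20.3 ± 33.5 and 12.8 ± 13.0 CPM (0.17), in type 1 and type 2. Both were thus lower in type 2 by mean CPM but higher by mean log2 level. Their lowest type 1 values were in 1-2, at 6.93 CPM for Scn3b and 0.577 CPM for Scn2b. For both genes all 5 type 2 neurons lay inside the type 1 range.

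Genes that anchor or modify the FHF and channel complex varied between neurons, but no more than genes at large. The median SD of the log2 level was 2.42 over axon initial segment genes and 1.70 over kinase and scaffold genes. It was 2.54 over all genes whose mean reached 10 CPM, and the SD of Fgf14 was 2.22. Of the 7 axon initial segment genes whose mean reached 10 CPM, 1 was past 4-fold, the adhesion gene Nrcam, higher in type 1 (difference -3.10), no larger a share than the 25.6% of all genes. Sptbn4, which encodes an axon initial segment spectrin, had a difference of -1.52. Of 10 kinase and scaffold genes, 2 were past 4-fold, again no more than the 25.6% of all genes, and both were higher in type 2: Wee1 (2.74) and Csnk2a2 (2.42), the latter a catalytic subunit of casein kinase 2. Wee1 was at 70.6, 79.7 and 120 CPM in 6-2, 10-1 and 10-3 and at 110 CPM in the type 1 neuron 4-3, so its ranges overlapped. Calm2 and Calm3, which encode calmodulin, a protein that binds the channel tail beside the FHF site, were detected in all 10 neurons. Calm2 had a difference of -0.16 and Calm3 one of -0.34. All 5 neuronal calcium channel pore genes listed, which FHFs can also modulate, had the higher log2 mean in type 1, Cacna1e (-2.94) past 4-fold, beside Cacna1c (-1.30) and Cacna1d (-0.92). Of all 9212 genes whose mean reached 10 CPM, 4015 were higher in type 1 and 25.6% passed 4-fold. Cacna1d shares exon bases with a gene on the opposite strand, and its value is uncertain.

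The secreted relatives of the FHFs and their receptors were far sparser than Fgf12 and Fgf13, as was Fgf11. Of 18 secreted FGF genes, 8 had 0 counts in every neuron, 5 were detected in at least 1 neuron and 0 in all 10. For all 25006 genes these numbers were 10399, 11782 and 1694, so many 0 counts do not set the secreted FGF genes apart. Fgf1 averaged 89.1 ± 111 CPM over type 1 and 3.10 ± 4.29 CPM over type 2 neurons (difference -2.90), with 0 CPM in 4-3 and 266 CPM in 1-1. All 5 type 2 neurons lay inside its type 1 range. Of the 2 secreted FGF genes whose mean reached 10 CPM, Fgf1 alone passed 4-fold, as did 25.6% of all genes. Fgf18 was at 0 in all type 1 neurons and at 0.0636 to 20.3 CPM in type 2, the lowest value being in 9-4. Separate ranges were found for 2.45% of genes whose mean reached 10 CPM, but the mean of Fgf18 was 5.05 CPM. The value in 9-4 also lies below what a count of 0 allows in the type 1 libraries, 0.0717 to 0.306 CPM. Depth therefore does not resolve the separation. Of the 7 receptor and co-receptor genes, 4 had counts and Fgfr1 alone was detected, averaging 72.7 ± 76.9 CPM over type 1 and 12.4 ± 16.2 CPM over type 2 neurons (difference -3.10). The Fgfr1 ranges overlapped, with 2 type 2 neurons inside the type 1 range and 3 below it, and 25.6% of all genes likewise passed 4-fold.

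**Figure D5:**
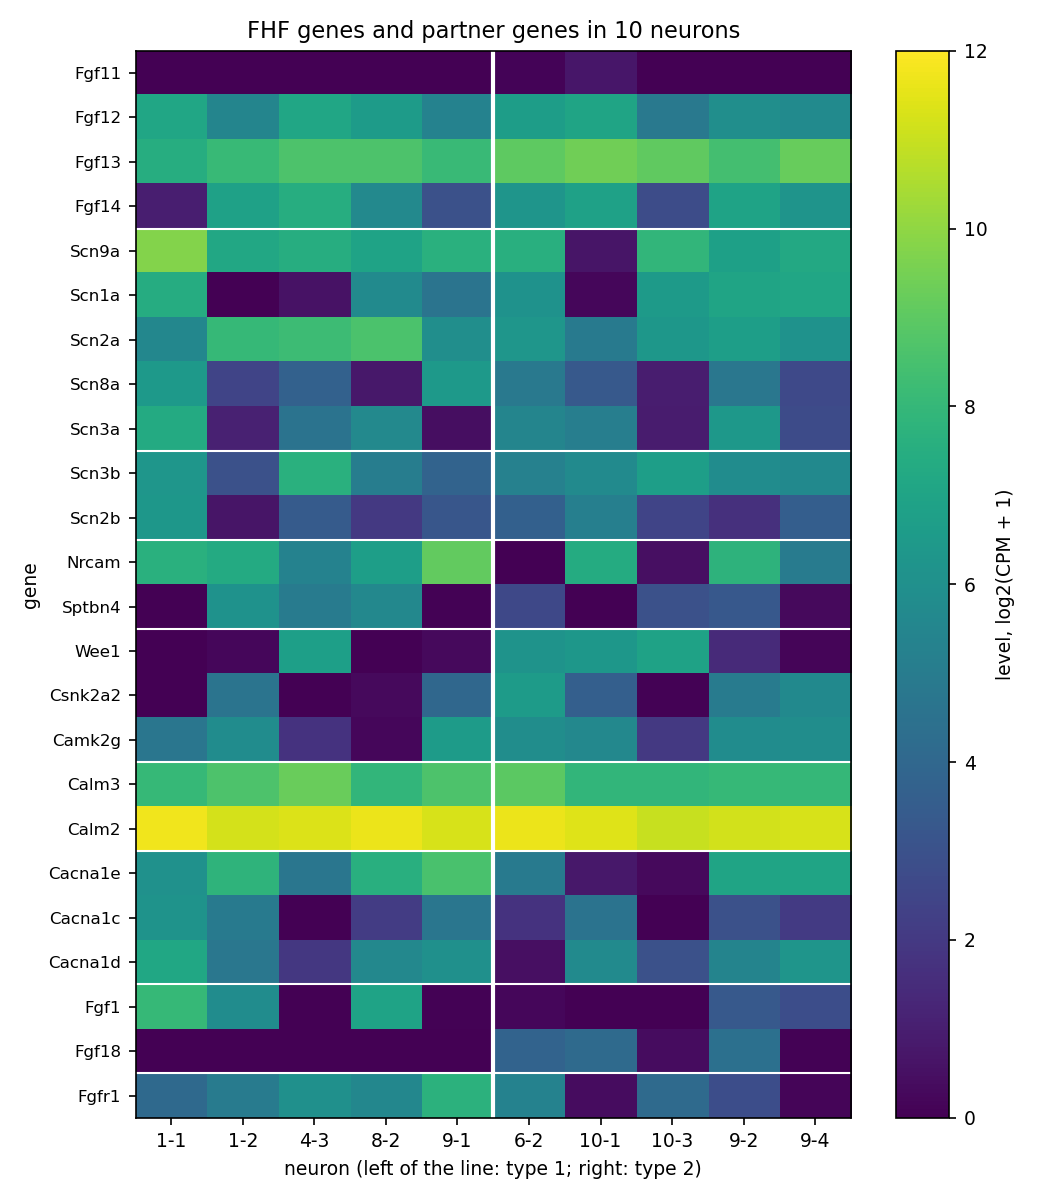
Level as log2(CPM + 1), by colour, of the 4 FHF genes and genes of each partner list (rows, lists parted by white lines) in 5 type 1 neurons (left of the vertical line) and 5 type 2 neurons. Fgf12, Fgf13, Scn2a, Calm2 and Calm3 are present in all 10 neurons, while Fgf14 falls to 1.00 CPM in 1-1 and Scn9a to 0.601 CPM in 10-1.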

How the data were processed

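Single-neuron RNA libraries were analysed from the whole-number counts of reads per gene that the authors deposited, unnormalized per the file headers and the values. Per the submitters' processing notes, cutadapt 1.13, STAR, HTSeq 0.6.1p1 and DESeq2 were used with mm10; for step order, annotation release, strand option and cDNA amplification, no statement is given in the sources used here. CPM, CPM per kilobase of GENCODE M21 exons and log2(CPM + 1) were computed here from the deposited counts. Each firing type counts as 1 sample, so no gene-wise test was fitted. The computation of differences was tested on simulated counts that held counting error but no other spread between neurons. How reliable a difference between 5 and 5 neurons is was therefore not tested. The members and lists were chosen with earlier results of these data known. Named were the FHF genes, all sodium channel genes detected in 3 or more of the 5 neurons of either type, the 3 largest differences among such genes in every other list, and the 3 genes most alike to each FHF gene (some genes this rule takes are not reported here), leaving out pseudogenes and predicted, haemoglobin, ribosomal protein and mitochondrial genes. Alternatives were pseudocounts of 10 and 0.1 CPM, TMM (edgeR 4.0.16) and DESeq2 1.42.0 size factors, totals without the 50 most abundant genes, thinning to the smallest library, medians, ratios of mean CPM, depth sets, neurons numbered 9, other filters, and leaving out neurons. Libraries were no copies of each other (chi-square per degree of freedom at least 559 over 45 pairs). Sequences are GENCODE M21 transcripts. R 4.3.3, Python 3.11.15, numpy 2.4.6, pandas 2.3.3, scipy 1.17.1 and matplotlib 3.10.9 were used.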

Additional observations from a re-analysis of the deposited data

Results flagged for a closer look

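Among the 45 groups of 5 neurons examined for the FHF genes and their named partners, 7 had a neuron set apart from the rest. The rule was a gap over 0.71 of the group's range on the log2 scale. For normally distributed values, chance flags about 1 in 20 groups. The only FHF gene among the 7 was Fgf14, at 5.99 CPM in the type 2 neuron 10-3 against 73.7 to 122 CPM in the other type 2 neurons. In the same neuron Camk2g was at 3.01 CPM, against 47.5 to 58.5 CPM in the others. In 10-1, Scn9a was at 0.601 CPM, against 114 to 238 CPM in the other type 2 neurons, and Scn1a at 0.168 CPM, against 69.5 to 135 CPM. In 6-2, Calm3 was at 507 CPM, against 237 to 265 CPM. Among type 1 neurons, Scn9a was at 864 CPM in 1-1, against 124 to 197 CPM in the others, and Wee1 at 110 CPM in 4-3, against 0 to 0.223 CPM. Fgf11, at 0.649 CPM or less throughout, is not among the 7, although its type 2 value in 10-1 also lay apart by that gap.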

How the results depend on the processing

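Each FHF difference was recomputed under 22 alternatives. Fgf13 stayed positive in all of them, from 0.63 to 1.05, as did the FHF sum, from 0.48 to 0.90. In the libraries under 20000000 counts, however, the FHF sum (0.61) did not exceed the median of genes at large (0.64). Fgf12 ran from -0.64 to 0.53, with the other sign in 3 alternatives (without 10-3, neurons numbered 9, and libraries under 20000000 counts). Fgf14 ran from 0.04 to 3.59, the highest among neurons numbered 9, where 9-1 alone stands for type 1, and was 0.07 without 1-1. Fgf11 reached 0.75 with a pseudocount of 0.1 CPM. No FHF gene other than Fgf14, in that one set of 3 neurons, passed 4-fold in any alternative. The number of all genes past 4-fold was 2360, but 465 with a pseudocount of 10 CPM and 3637 with 0.1 CPM. The divisors for length were chosen after seeing the data. No paired analysis was possible because the types share no neuron name and only 1 first number, 9. Among the FHF genes, Fgf11 alone had counts of 0, in 8-2, the deepest library, as in others. The part of depth in its levels was not tested. The limit set by a count of 0 leaves out molecules lost before sequencing.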
